A study of Mus musculus with 11 samples.

Results

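The genes examined were 10 genes of self-renewal in blood progenitors, namely the transcription factor genes Myb, Mef2c, Gata2, Etv6, Erg, Lmo2, Tal1, Runx2 and Sox4 and the kinase gene Cdk6. They were taken by symbol, through the transcript accession of each probe, from 20972 genes with a symbol on the array. They had 14 probes of 55681 in all, and 9 of the 10 genes had a probe that passed the filter on dim signal. The cells were L-GMP, granulocyte-macrophage progenitors of C57BL/6 mice transformed with MLL-AF9, a fusion oncogene of acute myeloid leukaemia. The 4 lines had been set up from leukaemic animals and were cultured with IL-3 at 10 ng/ml in medium holding 20% fetal bovine serum. The genotype of every array, those at 0 h included, was Jmjd2a/b/c f/f;Rosa26::CreERT2. This means floxed alleles of the histone demethylase genes Kdm4a, Kdm4b and Kdm4c and a Cre recombinase that 4-hydroxytamoxifen switches on, expressed from the Rosa26 locus. Cells at 0 h had no drug and filled 4 arrays. Cells kept in 500 nM 4-hydroxytamoxifen filled 4 arrays at 48 h and 3 at 96 h. Untreated cells were measured only at 0 h, so gene loss, drug or recombinase and culture time cannot be told apart. The labels do not tie arrays to the 4 lines, so p-values measure the spread between these arrays. In such bulk RNA, fewer cells of a type and less RNA per cell cannot be told apart.

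Self-renewal of blood stem and progenitor cells depends on a small set of transcription factors that bind enhancers together. TAL1 pairs with an E protein on E-box sequences, LMO2 bridges it to a GATA factor, and the ETS factors ERG and FLI1 and the factor RUNX1 bind beside them. MYB keeps progenitors in an immature, cycling state, and leukaemias driven by MLL fusions are known to depend on it. CDK6 joins D-type cyclins and phosphorylates the retinoblastoma proteins, which moves cells through G1.

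The arrays were checked before the listed genes were read. Signal remaining from the floxed genes at 48 h and 96 h was 33.1% and 43.6% of the 0 h level for Kdm4a, 10.2% and 10.5% for Kdm4b, and 3.24% and 4.13% for Kdm4c. Between 49.5% and 64.1% of probes were well above background on 10 arrays, and 75.5% on 96 h replicate 1, which stood apart. The 0 h and 48 h arrays shared 1 slide, while the 96 h arrays lay on another slide, so slide and the 96 h group cannot be told apart. Markers of granulocyte-macrophage progenitors, such as Mpo and Elane, were well above background on every array (13 of 13 with a probe), with 3 called higher at 48 h, where 10.5% of all genes were, and 2 at 96 h, where 6.18% were, against 0 h. Of mature neutrophil markers, the mean scaled log2 signal over 12 was 0.44 to 2.73 at 0 h, 1.54 to 2.87 at 48 h and 3.20 to 4.84 at 96 h. Of these 12, 2 were called higher at 48 h and 4 at 96 h against 0 h, where 10.5% and 6.18% of all genes were. Lower calls numbered 0 at both times, where 8.03% and 3.38% of all genes were called lower. Ltf, the iron-binding lactoferrin of secondary granules, had a log2 difference of 6.82 at 96 h (limma, adjusted p = 0.000998). The other 8 did not pass at 96 h, among them Lcn2, which encodes the granule protein lipocalin 2 (0.16, adjusted p = 0.905), and the integrin gene Itgam (0.06, adjusted p = 0.778). The part of these values in the ones below was not tested. Of the 8 other marker lists, none had more than 3 members called in a direction at 48 h or 96 h against 0 h. At 48 h, 3 of 9 measured erythroid, 2 of 6 mast cell and basophil and 2 of 10 megakaryocyte markers were called higher (10.5% of all genes). At 96 h these counts were 2, 0 and 2 (6.18% of all genes). In these lists 0 were called lower at either time (8.03% and 3.38% of all genes). The part of these markers in the values below was not tested. Endothelial cells also use Gata2, Erg, Lmo2 and Tal1. Of 10 endothelial markers, 3 to 6 were well above background on an array, and Cdh5, Emcn, Sox18 and Tie1 were so on none. The mean scaled log2 signal of the 10 was -4.52 to -4.12 at 0 h, -4.00 to -3.39 at 48 h and -4.20 to -3.45 at 96 h. Of the 4 that were tested, Kdr (0.56, limma adjusted p = 0.022) and Vwf (1.15, adjusted p = 0.0211) were called higher at 48 h (10.5% of all genes). These calls held under 17 and 21 of 24 alternatives. At 96 h against 0 h, 0 of the 4 were called (9.56% of all genes). The Kdr call was lost without any 1 of 4 arrays (adjusted p of up to 0.0625) and that of Vwf without 0 h replicate 3 or 48 h replicate 4 (up to 0.0571). Their part in the values below was not tested.

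Gata2 and Etv6 were the listed genes called lower, Gata2 to 57.2% and Etv6 to 69.6% of the 0 h level at 96 h. Their calls held under 15 and 14 of 24 alternatives, and each was lost without any 1 of 6 arrays. The 96 h arrays lay on their own slide. Whether Gata2 and Etv6 differed from the other listed genes was not tested. No listed gene was called at 48 h against 0 h or at 96 h against 48 h, and no listed gene was called higher in any comparison. Levels are scaled log2 signals, the log2 spot intensity minus the 75th percentile of its array. Each difference is the later time minus the earlier 1 on that scale. Calls need an adjusted p under 0.05 in a limma fit of all 11 arrays, with adjustment over 25079 genes or unnamed features. Of these, 14996 were genes with a symbol and 10083 were features without 1. Shares and medians given for all genes cover both kinds, while the listed genes all have a symbol.

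At 96 h against 0 h, 2 of the 9 measured genes (22.2%) were called lower, against 3.38% of all genes called lower, and 0 were called higher, against 6.18%. In either direction 9.56% of all genes were called. The listed genes and the related lists below were chosen with earlier results of these data known. Their shares beside those of all genes are therefore no independent test. At 48 h against 0 h, 0 of 9 were called, against 18.6% of all genes (10.5% higher and 8.03% lower), while 5 of 9 had an unadjusted p under 0.05, as had 34.7% of all genes. These 5 were Gata2, Etv6, Runx2, Sox4 and Cdk6. At 96 h against 48 h, 0 of 9 were called, against 11.1% of all genes (5.17% higher and 5.95% lower), and 0 of 9 had an unadjusted p under 0.05, against 28.1% of all genes. The median difference of the 9 genes was -0.37 at 48 h and -0.18 at 96 h against 0 h, beside 0.12 and 0.11 over all genes. Over the alternatives these medians ran from -0.60 to -0.27 and from -0.57 to -0.11, and the 96 h median was -0.33 without 0 h replicate 3 and -0.29 without 0 h replicate 4. At each of the later times, 8 of the 9 lay below the median of all genes. These 8 include Mef2c, whose probe was well above background on 3 of 11 arrays. They also include Runx2 by its brightest probe, while its second probe lay 0.18 above that median at 96 h. Between 96 h and 48 h the median was 0.08, beside 0.03 over all genes. Comparisons at 48 h and 96 h share the 0 h arrays. With arrays paired by the number in their file names, 2 genes were called lower at 48 h (Gata2, adjusted p = 0.0451, and Sox4, adjusted p = 0.0408) and 1 at 96 h (Gata2), where 9.23% and 5.45% of all genes were called lower. That fit called higher 12.2% of all genes at 48 h and 8.56% at 96 h, and between 96 h and 48 h it called 5.89% higher and 6.28% lower.

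**Figure D1:**
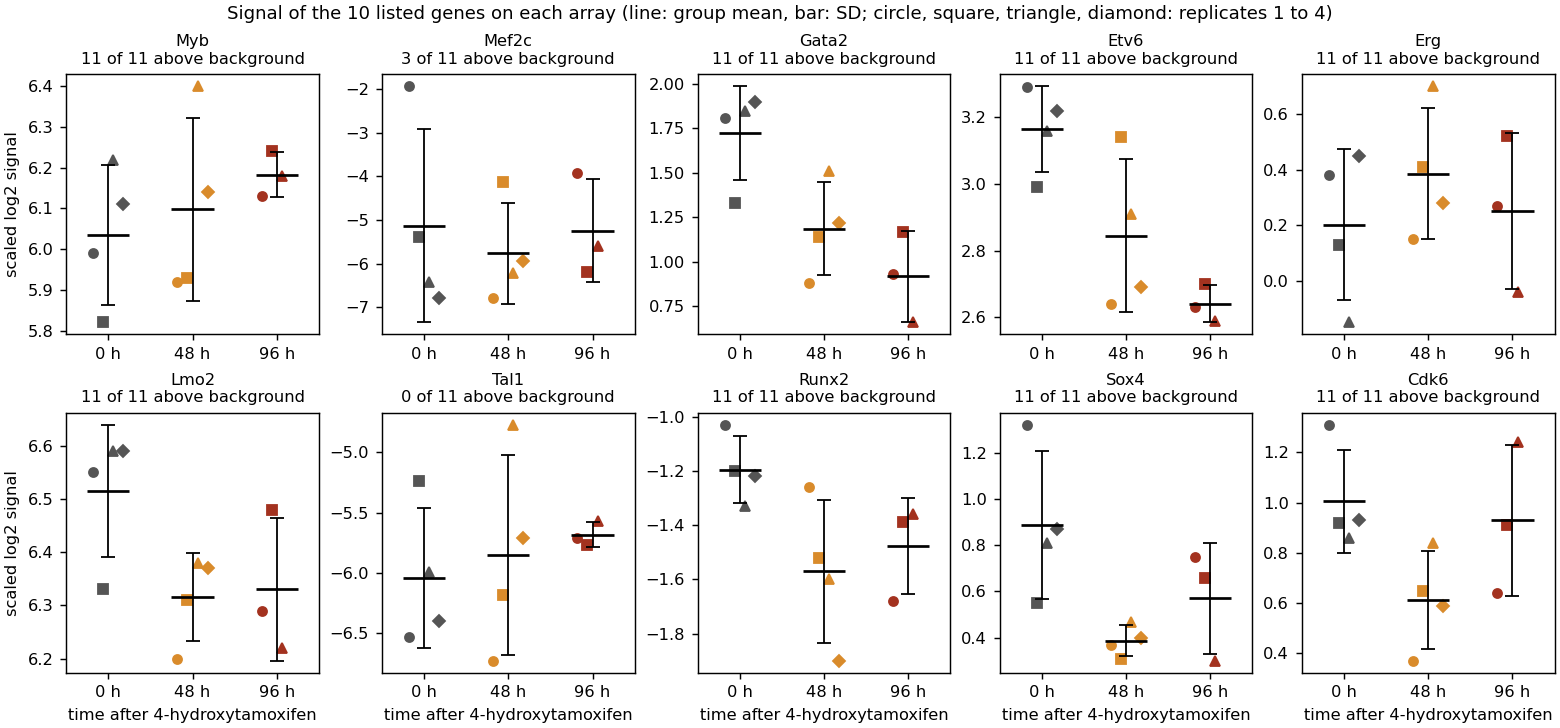
Scaled log2 signal of the 10 listed genes on each array (points), by time after 4-hydroxytamoxifen, with group means (lines) and SD (bars). Each panel has its own axis. The 96 h arrays of Gata2 and Etv6 lie below their 0 h arrays, and the Tal1 probe was well above background on 0 of 11 arrays.

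GATA2 is a zinc-finger factor that stem and progenitor cells need and that falls silent as granulocytes mature. Its probe (A_52_P233441) was well above background on 11 arrays. The scaled log2 signal of Gata2 was 1.81, 1.33, 1.85 and 1.90 in 0 h replicates 1 to 4, 0.88, 1.14, 1.51 and 1.22 at 48 h, and 0.93, 1.17 and 0.66 at 96 h. The 96 h arrays lay below the 0 h arrays without overlap, and 0 h replicate 2 was the lowest at that time. The 48 h arrays overlapped the 96 h arrays, and 48 h replicate 3 lay above that lowest 0 h array. Gata2 averaged 1.72 ± 0.26 at 0 h (SD, n = 4), 1.19 ± 0.26 at 48 h (n = 4) and 0.92 ± 0.26 at 96 h (n = 3). The difference was -0.80 at 96 h against 0 h (SE 0.19, 95% interval -1.23 to -0.38, limma adjusted p = 0.031), and -0.91 relative to the median of all genes. At 48 h it was -0.54 (SE 0.18, adjusted p = 0.0592), which missed the threshold, and between 96 h and 48 h it was -0.27 (adjusted p = 0.395). Within pairs of arrays with 1 file number, Gata2 was lower in 4 of 4 pairs at 48 h and in 3 of 3 at 96 h. Leaving out 0 h replicate 1, 3 or 4, or 1 of the 3 arrays at 96 h, ended the 96 h call, with differences of -0.93 to -0.67 and adjusted p of 0.0525 to 0.0987. Without 96 h replicate 1, the array that stood apart, it was -0.81 (adjusted p = 0.0786). Without 0 h replicate 2 the 48 h difference was -0.67 (adjusted p = 0.0212), and without 48 h replicate 3 it was -0.64 (adjusted p = 0.0406).

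ETV6 is an ETS-family repressor that adult blood stem cells need in the bone marrow, and its gene is a frequent partner in leukaemia translocations. The scaled log2 signal of Etv6 (probe A_55_P2230913) was 3.29, 2.99, 3.16 and 3.22 in 0 h replicates 1 to 4, 2.64, 3.14, 2.91 and 2.69 at 48 h, and 2.63, 2.70 and 2.59 at 96 h. The 3 arrays at 96 h lay close together and below every 0 h array, while 48 h replicate 2 reached into the 0 h range. Etv6 averaged 3.17 ± 0.13 at 0 h (SD, n = 4), 2.84 ± 0.23 at 48 h (n = 4) and 2.64 ± 0.06 at 96 h (n = 3). The difference was -0.52 at 96 h against 0 h (SE 0.13, 95% interval -0.82 to -0.23, limma adjusted p = 0.0374). At 48 h it was -0.32 (SE 0.12, adjusted p = 0.0957), and between 96 h and 48 h -0.20 (adjusted p = 0.352). The 96 h call was lost with arrays paired by file number (-0.50, adjusted p = 0.0671). It was also lost without any 1 of the same 6 arrays as for Gata2, with differences of -0.56 to -0.48 and adjusted p of 0.077 to 0.105. Without 96 h replicate 1 the difference was -0.52 (adjusted p = 0.0982). Without 48 h replicate 2 the 48 h difference was -0.42 (adjusted p = 0.0399).

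The promoter windows of these 2 genes are shown because they carry the calls, and that of Runx2 because it holds repeated matches of the motif of its own family. Each window runs from 250 bases before to 50 after a transcript start in RefSeq (GRCm38.p6) and is written 5′ to 3′ on the strand of the gene. The window tables matched 9 of the 10 genes. Capitals mark matches, on either strand, to GATAA (GATA factors), CANNTG (E-box), CCGGAA (ETS factors), TGTGGT (RUNX factors), TAACNG (MYB) and ACAAAG (SOX factors).
Gata2 start 1, chr6:88193641-88193940 (+): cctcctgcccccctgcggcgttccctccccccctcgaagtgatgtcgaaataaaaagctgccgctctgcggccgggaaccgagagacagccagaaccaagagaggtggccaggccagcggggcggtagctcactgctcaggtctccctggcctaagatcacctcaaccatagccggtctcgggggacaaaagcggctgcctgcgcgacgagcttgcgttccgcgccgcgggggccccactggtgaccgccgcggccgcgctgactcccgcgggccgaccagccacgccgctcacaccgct
Gata2 start 2, chr6:88198414-88198713 (+): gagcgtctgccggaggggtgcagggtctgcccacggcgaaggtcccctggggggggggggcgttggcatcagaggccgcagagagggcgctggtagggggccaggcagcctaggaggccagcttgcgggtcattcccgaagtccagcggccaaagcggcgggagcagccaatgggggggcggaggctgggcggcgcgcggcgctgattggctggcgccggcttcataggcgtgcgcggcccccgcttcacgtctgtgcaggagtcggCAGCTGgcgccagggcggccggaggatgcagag
Etv6, chr6:134035450-134035749 (+): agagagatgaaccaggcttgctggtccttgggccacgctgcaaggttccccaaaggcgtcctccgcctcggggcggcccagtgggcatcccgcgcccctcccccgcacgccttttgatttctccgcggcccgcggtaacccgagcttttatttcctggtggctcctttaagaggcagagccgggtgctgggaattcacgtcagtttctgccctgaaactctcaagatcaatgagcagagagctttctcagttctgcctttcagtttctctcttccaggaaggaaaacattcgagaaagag
Runx2, chr17:44814578-44814877 (-): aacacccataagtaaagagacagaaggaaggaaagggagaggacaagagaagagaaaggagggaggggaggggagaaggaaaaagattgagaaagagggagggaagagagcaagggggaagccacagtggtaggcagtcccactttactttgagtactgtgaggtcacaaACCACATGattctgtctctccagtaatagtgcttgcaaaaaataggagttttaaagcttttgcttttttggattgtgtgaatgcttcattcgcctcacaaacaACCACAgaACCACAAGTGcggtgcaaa
The first Gata2 window and the Etv6 window held 0 matches, and the second Gata2 window held 1 E-box. The Runx2 window held 3 RUNX matches and 2 E-boxes, with each E-box overlapping a RUNX match. Among 32851 such windows, 16.8% held a RUNX match, 72.3% an E-box, 25.4% a GATA, 14.9% an ETS, 23.3% a MYB and 18.7% a SOX match. Each share counts windows with 1 or more matches. The Runx2 window was chosen for its RUNX matches, so the 16.8% is no test of them. Windows of other listed genes, not shown, also held matches. All are letter matches and not measured binding.

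LMO2 and TAL1 form the core of the complex that GATA2 joins. LMO2 is the LIM-only protein that bridges its DNA-binding members. The scaled log2 signal of Lmo2 was 6.55, 6.33, 6.59 and 6.59 in 0 h replicates 1 to 4, 6.20, 6.31, 6.38 and 6.37 at 48 h, and 6.29, 6.48 and 6.22 at 96 h. The later arrays lay below 0 h replicates 1, 3 and 4 and overlapped 0 h replicate 2. The Lmo2 difference was -0.20 at 48 h (SE 0.10, adjusted p = 0.188) and -0.18 at 96 h (SE 0.11, adjusted p = 0.29) against 0 h, and neither was called. In the authors' deposited table, fitted in the same way, Lmo2 was called lower at 48 h (-0.33, adjusted p = 0.00451). The probe for Tal1, the basic helix-loop-helix factor, stayed near background on each of the 11 arrays, so Tal1 was left out of the tests.

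ERG, an ETS factor of the same enhancers, had 2 probes well above background on 11 arrays. Its brighter probe (A_55_P2015862) gave 0.38, 0.13, -0.15 and 0.45 in 0 h replicates 1 to 4, 0.15, 0.41, 0.70 and 0.28 at 48 h, and 0.27, 0.52 and -0.04 at 96 h. The 3 groups overlapped in part, with 48 h replicate 3 above every array of the other groups. The Erg difference was 0.18 at 48 h (95% interval -0.21 to 0.58, adjusted p = 0.49) and 0.05 at 96 h (-0.38 to 0.48, adjusted p = 0.884) against 0 h. The other Erg probe (A_55_P2113832) gave -2.36, -2.66, -2.72 and -2.11 at 0 h, -2.30, -1.93, -2.09 and -2.03 at 48 h, and -2.58, -2.82 and -2.68 at 96 h. On it, every 96 h array lay below every 48 h array. That difference was -0.60 (SE 0.16, limma adjusted p = 0.0418 over all 34269 probes), where 9.78% of probes were called, while the brighter Erg probe differed by -0.13 (adjusted p = 0.699). The call of the dimmer Erg probe ended with arrays paired by file number (-0.61, adjusted p = 0.0611) and in the authors' deposited table (-0.21, adjusted p = 0.131). It also ended on leaving out 0 h replicate 1 or any array at 48 h or 96 h, with adjusted p of 0.0531 to 0.12. Against 0 h the dimmer Erg probe differed by 0.37 at 48 h (adjusted p = 0.112) and by -0.23 at 96 h (adjusted p = 0.368).

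**Figure D2:**
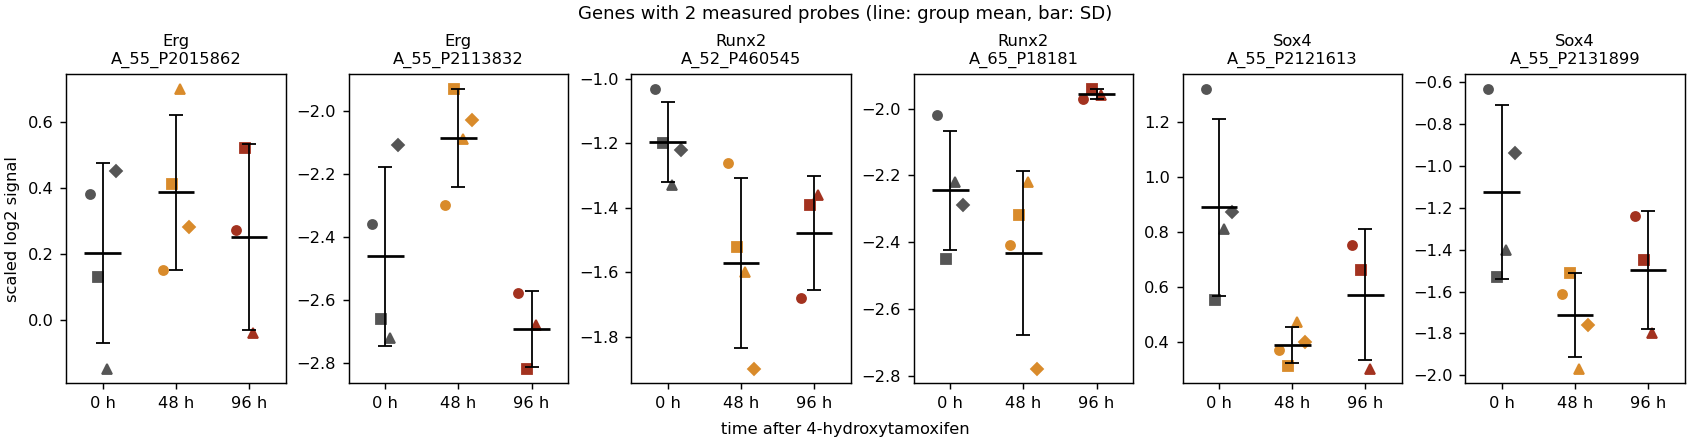
Scaled log2 signal of each measured probe of Erg, Runx2 and Sox4 on each array (points), by time after 4-hydroxytamoxifen, with group means (lines) and SD (bars). The Sox4 probes both have their lowest mean at 48 h, whereas the Runx2 probes differ by -0.28 and 0.29 at 96 h against 0 h.

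RUNX2 is the RUNX-family factor best known for bone formation, and it is also expressed in blood progenitors. Its brightest probe (A_52_P460545), which is annotated to a coding transcript record, gave -1.03, -1.20, -1.33 and -1.22 in 0 h replicates 1 to 4, -1.26, -1.52, -1.60 and -1.90 at 48 h, and -1.68, -1.39 and -1.36 at 96 h. The 96 h arrays lay below the 0 h arrays without overlap, and 48 h replicate 1 lay within the 0 h range. The Runx2 difference was -0.37 at 48 h (SE 0.14, adjusted p = 0.0955) and -0.28 at 96 h (SE 0.15, adjusted p = 0.261) against 0 h. A second Runx2 probe (A_65_P18181), annotated to a non-coding transcript record of Runx2, gave -2.02, -2.45, -2.22 and -2.29 at 0 h, -2.41, -2.32, -2.22 and -2.78 at 48 h, and -1.97, -1.94 and -1.96 at 96 h. There the 96 h arrays lay above all arrays of the other groups, opposite in order to the first probe. The second probe differed by 0.29 at 96 h against 0 h (adjusted p = 0.227, with 8.31% of probes called) and by 0.47 at 96 h against 48 h (SE 0.15, adjusted p = 0.0698). Neither difference was called. The reason for this opposite order was not tested. Another Runx2 probe (A_52_P55876), annotated to the same record as the brightest probe, was well above background on 96 h replicate 1 alone.

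SOX4 is an HMG-box factor that restrains myeloid differentiation when expressed at high level. The brighter Sox4 probe (A_55_P2121613) gave 1.32, 0.55, 0.81 and 0.87 in 0 h replicates 1 to 4, 0.37, 0.31, 0.47 and 0.40 at 48 h, and 0.75, 0.66 and 0.30 at 96 h. Every 48 h array lay below every 0 h array, whereas the 96 h arrays overlapped both. The Sox4 difference was -0.50 at 48 h (SE 0.16, 95% interval -0.86 to -0.14, adjusted p = 0.0558), which missed the threshold, and -0.32 at 96 h (SE 0.17, adjusted p = 0.26). It was called at 48 h without 0 h replicate 2 (-0.61, adjusted p = 0.0228), with median scaling (-0.72, adjusted p = 0.0291) and in the authors' deposited table (-0.41, adjusted p = 0.0238). Under 17 of 24 alternatives Sox4 was still not called at 48 h, with limma adjusted p of up to 0.112. Median scaling also moved the median difference of all kept probes at 48 h from 0.13 to -0.10. A second Sox4 probe (A_55_P2131899) gave -0.63, -1.53, -1.40 and -0.94 at 0 h and -1.61, -1.51, -1.97 and -1.76 at 48 h. At 96 h it gave -1.24, -1.45 and -1.80. On it the 48 h and 0 h arrays overlapped, with 48 h replicate 2 above 0 h replicate 2. Its difference was -0.59 at 48 h (SE 0.21, limma adjusted p = 0.0848, with 16.4% of probes called) and -0.37 at 96 h (adjusted p = 0.318). Without 0 h replicate 2 the 48 h difference of this probe was -0.72 (adjusted p = 0.0415).

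MYB, the factor on which MLL-fusion leukaemia cells are known to depend, is encoded by Myb. Its probe (A_55_P2017826) gave 5.99, 5.82, 6.22 and 6.11 in 0 h replicates 1 to 4, 5.92, 5.93, 6.40 and 6.14 at 48 h, and 6.13, 6.24 and 6.18 at 96 h. The 3 groups overlapped. The Myb difference was 0.06 at 48 h (95% interval -0.22 to 0.35, adjusted p = 0.751) and 0.15 at 96 h (-0.16 to 0.46, adjusted p = 0.514) against 0 h. With median scaling the 48 h value was -0.16 (adjusted p = 0.71).

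MEF2C, a MADS-box factor raised by MLL fusions in stem-cell-like leukaemia, was close to the detection limit. Its probe was well above background on 1 array per group, at -1.93 in 0 h replicate 1, -4.12 in 48 h replicate 2 and -3.93 in 96 h replicate 1. The remaining 8 arrays gave signals near background, and the SD of Mef2c reached 2.22 at 0 h. Its difference was -0.63 at 48 h (95% interval -2.92 to 1.66) and -0.11 at 96 h (-2.58 to 2.37) against 0 h, so a change in Mef2c was not detectable at this signal.

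**Figure D3:**
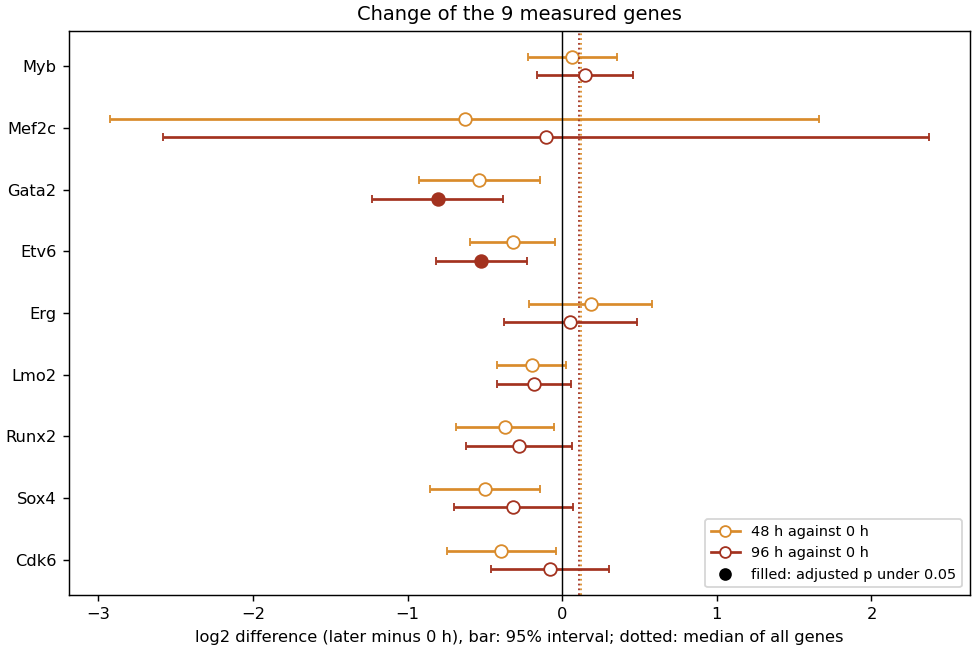
Log2 difference from 0 h of the 9 measured genes at 48 h and 96 h (points) with 95% intervals (bars). Filled points mark an adjusted p under 0.05, and dotted lines mark the median of all genes. The 96 h points of Gata2 (-0.80) and Etv6 (-0.52) are filled, and the Mef2c intervals are the widest of the 9.

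CDK6 is the kinase that drives G1 progression in progenitors and a known dependency of MLL-AF9 leukaemia. The scaled log2 signal of Cdk6 was 1.31, 0.92, 0.86 and 0.93 in 0 h replicates 1 to 4, 0.37, 0.65, 0.84 and 0.59 at 48 h, and 0.64, 0.91 and 1.24 at 96 h. Every 48 h array lay below every 0 h array, by a narrow margin at 48 h replicate 3, and the 96 h arrays spanned both groups. The Cdk6 difference was -0.39 at 48 h (SE 0.16, adjusted p = 0.11) and -0.08 at 96 h (SE 0.17, adjusted p = 0.798) against 0 h, and 0.32 at 96 h against 48 h (adjusted p = 0.263). None of the 3 was called. Without 0 h replicate 1 or without 96 h replicate 1 the 96 h value turned positive.

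The partners of CDK6 were read from a list of 20 cyclin, CDK, CDK inhibitor, RB and E2F genes, of which 19 were measured. At 48 h, 2 of the 19 were called higher and 3 lower, against 10.5% and 8.03% of all genes. At 96 h 0 were higher and 1 was lower, against 6.18% and 3.38%, with list medians of -0.16 and -0.21. Its D-type cyclins were not called: Ccnd2 differed by -0.39 (adjusted p = 0.255) and Ccnd3 by 0.25 (adjusted p = 0.315) at 48 h, and Ccnd1 by -0.23 (adjusted p = 0.838). Cdk4, the close relative of Cdk6, differed by 0.15 (adjusted p = 0.311), and Cdkn2c, an inhibitor of both kinases, by -0.16 (adjusted p = 0.532). Rb1, the main substrate of CDK6, fell at 48 h (-0.72, SE 0.15, adjusted p = 0.0107), as did the S-phase activator E2f3 (-0.73, adjusted p = 0.0175). E2f1 rose (0.49, adjusted p = 0.0174), a call that was lost without 48 h replicate 1 (adjusted p = 0.05) and with median scaling. The cyclin E gene Ccne1 was the other call higher (0.36, adjusted p = 0.0473), which held under 6 of 24 alternatives. The call of Rb1 held under 24 of 24 alternatives, and that of E2f3 was lost with the mean of its probes. Between 96 h and 48 h, 1 gene of the list was called higher and 2 lower, against 5.17% and 5.95% of all genes. With arrays paired by file number, 1 was called higher at 48 h (12.2% of all genes) and 0 between 96 h and 48 h (5.89%).

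Partners of TAL1, LMO2 and GATA2 were 12 genes, all measured. Of these, 3 were called lower and 0 higher at 48 h, against 8.03% and 10.5% of all genes. At 96 h against 0 h 0 were called, against 9.56% of all genes, and the list medians were -0.01 and -0.04. The 3 were Ldb1, the dimerising cofactor of LMO2 (-0.33, adjusted p = 0.0232), Ssbp3, which stabilises LDB1 (-0.52, adjusted p = 0.0287), and Tcf12, an E protein that pairs with TAL1 (-0.87, adjusted p = 0.0396). The calls of Ldb1, Ssbp3 and Tcf12 were lost on leaving out any 1 of 4, 6 and 8 arrays, at adjusted p of up to 0.0639, 0.0794 and 0.102. Changes of processing also ended each of them, and they held under 15, 16 and 12 of 24 alternatives. The other members of the 7-factor group that binds stem cell enhancers were not called against 0 h. At 48 h, Lyl1 differed by -0.34 (adjusted p = 0.126), Fli1 by 0.03 (adjusted p = 0.825) and Runx1 by 0.29 (adjusted p = 0.0594). At 96 h, Lyl1 differed by -0.29, Fli1 by 0.05 and Runx1 by -0.18. Between 96 h and 48 h, 1 of the 12 was called higher, Ssbp3 (0.66, adjusted p = 0.0225), and 1 lower, Runx1 (-0.48, adjusted p = 0.0203). Without 96 h replicate 1 or 3 the Runx1 call was lost (adjusted p of 0.0595 to 0.071), and that of Ssbp3 was lost without any 1 of 4 arrays (up to 0.0742). Both calls were also lost with median scaling and with no filter on dim probes, and each held under 18 of 24 alternatives. Over all alternatives the limma adjusted p reached 0.467 for Runx1 and 0.29 for Ssbp3. Shares over all genes there were 5.17% higher and 5.95% lower. With arrays paired by file number, 1 partner was called higher at 96 h against 0 h (8.56% of all genes) and 2 between 96 h and 48 h (5.89%).

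Relatives of the listed factors were a list of 22 genes, 19 of them measured. At 48 h, 5 were called lower and 1 higher, against 8.03% and 10.5% of all genes, with a list median of -0.32. At 96 h 0 were lower and 1 was higher, against 3.38% and 6.18% of all genes, with a median of -0.02. Lmo4, a LIM-only relative of Lmo2, fell at 48 h (-1.01, SE 0.13, adjusted p = 0.00255), further than Lmo2 itself in value (-0.20), although the difference between these 2 genes was not tested. The ETS factor genes Etv3 (-0.57, adjusted p = 0.0137) and Ets2 (-0.74, adjusted p = 0.019) were also lower at 48 h. Ets2 lost its call without 48 h replicate 4 (adjusted p = 0.056). The ETS gene Ets1 rose at 48 h (0.57, adjusted p = 0.00437) and at 96 h (0.67, SE 0.10, adjusted p = 0.00712), where Etv6 fell. The Ets1 calls were lost with median scaling, and that at 48 h also with the mean of its probes. Between 96 h and 48 h, 2 relatives were called higher and 1 lower, against 5.17% and 5.95% of all genes. With arrays paired by file number, 3 relatives were called lower at 96 h against 0 h (5.45% of all genes) and 3 between 96 h and 48 h (6.28%).

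Other stem cell and leukaemia regulators, a list of 20 genes with 17 measured, had 6 members called lower and 0 higher at 48 h, against 8.03% and 10.5% of all genes, with a list median of -0.38. At 96 h 0 of 17 were called in limma, against 9.56% of all genes, with a median of -0.27. Msi2, an RNA-binding regulator of stem cells, differed by -0.75 at 48 h (SE 0.12, adjusted p = 0.00503). Meis1, the partner of HOXA9, differed by -0.64 (adjusted p = 0.00678), and the polycomb gene Bmi1 by -0.75 (adjusted p = 0.0157). The calls of Msi2, Meis1 and Bmi1 held under 24 of 24 alternatives. With arrays paired by file number, 9 of 17 were lower at 48 h and 3 at 96 h, against 9.23% and 5.45% of all genes.

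Of 10 genes known as MYB targets, 1 was called higher and 2 lower both at 48 h and at 96 h, with list medians of -0.23 and -0.0043. Over all genes 10.5% were called higher and 8.03% lower at 48 h, and 6.18% and 3.38% at 96 h. Mpo, the myeloperoxidase gene, rose by 4.33 at 48 h (SE 0.52, adjusted p = 0.00199) and by 5.18 at 96 h (adjusted p = 0.00264), while Myb itself differed by 0.06 and 0.15. The growth regulator gene Myc was called lower at 48 h (-0.73, adjusted p = 0.0274), as was the myeloid factor gene Cebpb (-0.42, adjusted p = 0.0201). The Myc call was lost without any 1 of 6 arrays (adjusted p of up to 0.0743) and that of Cebpb without any 1 of 3 (up to 0.0593). These 48 h calls of Myc and Cebpb held under 16 and 20 of 24 alternatives. Adora2b, an adenosine receptor gene, was lower at 96 h (-1.53, SE 0.28, adjusted p = 0.0155), a call lost without 96 h replicate 2 or 3 (up to 0.0559). Between 96 h and 48 h, 0 targets were called higher and 1 lower (5.17% and 5.95% of all genes), Adora2b (-1.29, adjusted p = 0.0201), a call lost without 48 h replicate 1 or 96 h replicate 2 or 3 (up to 0.0706). With arrays paired by file number, 2 MYB targets were called higher at 48 h and 2 at 96 h against 0 h, against 12.2% and 8.56% of all genes, and 1 between 96 h and 48 h (5.89%).

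**Figure D4:**
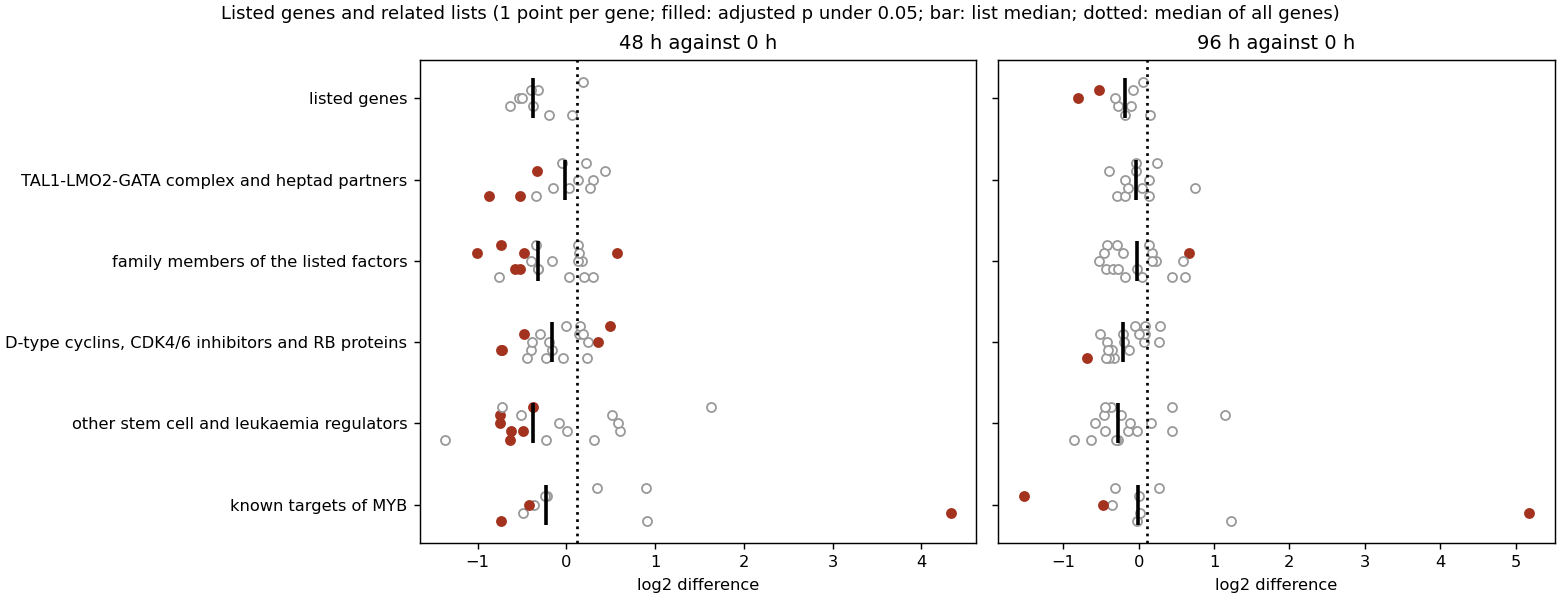
Log2 difference of each measured gene of the listed set and the 5 related lists at 48 h and 96 h against 0 h. Each point is 1 gene, filled points have an adjusted p under 0.05, bars mark list medians and dotted lines the median of all genes. The 2 filled points of the listed genes at 96 h are Gata2 and Etv6, and the points far to the right in the MYB targets are Mpo.

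For each measured gene, the named gene with the most similar profile over the 11 arrays was found by Pearson correlation, as a description. The arrays share their time groups and scaling, and these 11 points are not independent of either. For Gata2 it was Prr3 (r = 0.97), which differed by -0.79 at 96 h against 0 h (adjusted p = 0.0311). For Etv6 it was Zxdc (r = 0.97), which differed by -0.38 (adjusted p = 0.0474). For the others it was Hnrnpm for Myb (r = 0.96), Lrsam1 for Sox4 (0.96), Iffo1 for Lmo2 (0.95), Aldh1a2 for Mef2c (0.93), Kpna6 for Cdk6 (0.92), Gm3414 for Erg (0.89) and Rab10 for Runx2 (0.88). Prr3 and Zxdc were picked for their likeness over these same arrays, so their differences are no separate evidence.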

How the data were processed

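RNA of 11 samples was hybridised to 1-colour (Cy3) Agilent arrays. Per the file headers, Agilent Feature Extraction 11.0.1.1 wrote the deposited spot intensity, which had its background subtracted and was detrended on its own array, with no normalization across arrays. The array design was built on mm9. The deposited flags per spot mark signal well above background, outliers and saturation. The authors' deposited table is on a log2 scale. The submitters' processing notes name limma without a version. The table matched normexp correction (offset 50) and quantile normalization.

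Controls and outlier spots were dropped. The scaled log2 signal is log2 intensity minus its 75th percentile on that array, taken without controls. Probes were named through RefSeq accessions (27656 with a symbol). A probe was kept if 3 or more of the 11 arrays had it well above background (34269 probes), and the brightest stood for each of 25079 genes or unnamed features. limma 3.58.1 (lmFit and eBayes, 2-sided) in R 4.3.3 fitted 3 groups, with Benjamini-Hochberg adjustment. Intervals use the moderated degrees of freedom. The script was tested on simulated data. Figures used Python 3.11.15 and matplotlib 3.10.9.

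The members and lists were chosen with earlier results of these data known. All listed genes were to be named, with at most 3 called genes per related list and direction, by smallest adjusted p, and 8 fixed partners. The number of arrays limits the precision.

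Title numbers of the 96 h arrays (1 to 3) stand beside file-name numbers 1, 3 and 4. Deviations from the group means correlated above 0.1 in every pair of arrays with 1 file number (r of 0.137 to 0.282 at 48 h against 0 h, 0.115 to 0.356 at 96 h against 0 h and 0.229 to 0.303 at 96 h against 48 h), and by title number r reached down to -0.04. Arrays with different file numbers had r of -0.25 to 0.17, -0.24 to 0.11 and -0.29 to 0.08, which overlaps the paired values in the first comparison. The replicate block by file number is therefore given where it changes a call.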

Additional observations from a re-analysis of the deposited data

Results flagged for a closer look

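In 28 groups of 4 arrays (the 14 probes at 0 h and 48 h), 1 array stood far from the other 3 in 3 groups by Dixon's test, and chance gives about 1 in 20 groups. In 0 h replicate 2, Gata2 (A_52_P233441) was at 1.33 where the other 0 h arrays were at 1.81 to 1.90. In the same array Lmo2 (A_55_P2083988) was at 6.33, where the others were at 6.55 to 6.59. In 0 h replicate 1, Cdk6 (A_55_P2079630) was at 1.31, where the others were at 0.86 to 0.93. A Runx2 probe left out of the comparisons as dim (A_52_P55876) was well above background in 96 h replicate 1 at -2.36, where the other 10 arrays lay between -6.70 and -5.75. That array also had the highest share of probes above background, 75.5%.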

How the results depend on the processing

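With 24 alternatives run, 0 listed genes were called between 96 h and 48 h under each of them. At 48 h (0 called against 0 h), 1 was called with median scaling (Sox4). There were 2 under normexp correction and in the deposited table (Lmo2 and Sox4 in both), and 2 with probes above background on all arrays, the replicate block by file number and array weights (Gata2 and Sox4 in each). Leaving out 1 array gave 0 to 2. At 96 h (2 called against 0 h), 0 were called with no filter on dim probes, the replicate block by title number and only the 2 groups compared, 1 with the replicate block by file number (Gata2), and 0 to 2 on leaving out 1 array. Median scaling added Sox4 there (-0.70, adjusted p = 0.0424), with a median of all genes of -0.28, against 0.11 as reported. Of single probes at 48 h (0 called), 2 were called with median scaling, 1 with quantile normalization, 3 in the deposited table and under normexp correction, 2 with probes above background on all arrays, 1 with the replicate block by file number, 3 with array weights, and 0 to 3 without 1 array. At 96 h against 0 h (2 called) it was 3 with median scaling (the brighter Sox4 probe added), 1 with quantile normalization and with the replicate block by file number, 0 with no filter, the block by title number and only the 2 groups, and 0 to 2 without 1 array. Between 96 h and 48 h (1 called, the dimmer Erg probe) it was 0 with median scaling, normexp correction, the deposited table, no filter, either replicate block and slide row as a term. It was 2 with probes above background on all arrays and with array weights (the second Runx2 probe added), and 0 to 1 without 1 array. The cause of these shifts was not tested. No called value of the listed genes changed sign. Among 645 values of the 9 genes under alternatives, 32 changed sign, each of a gene not called.

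Over the alternatives, members called lower at 48 h numbered 0 to 4 for TAL1 partners, 2 to 6 for relatives, 2 to 5 for cyclin and RB genes, 3 to 9 for other regulators and 0 to 4 for MYB targets. At 96 h against 0 h these ranges were 0, 0 to 5, 0 to 4, 0 to 4 and 0 to 2. The share of all genes called lower shifted too. With the replicate block by file number it was 9.23% at 48 h and 5.45% at 96 h, against 8.03% and 3.38% as reported. For the other alternatives that share is not given, so these ranges and the counts above cannot be set against it. Signal near background limits Mef2c and Tal1.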
